A study of Mus musculus with 6 samples.

Results

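The collagen gene family was described in mouse liver under a normal and a high-fat diet. Its members were all probe sets whose platform annotation held exactly 1 gene symbol of the form Col, 1 or 2 digits, a, and a digit, which left out probe sets with several symbols. The rule found 82 probe sets of 42 genes among 45101 probe sets on the array, and every probe set of a gene is accounted for. Of the genes, 27 had several probe sets, at most 4, and 15 had 1.

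Liver RNA came from male C57BL/6 mice, an inbred laboratory strain, that started on their diet at 8 weeks of age and stayed on it for 12 weeks. One group received a normal diet and the other a high-fat diet, in which fat supplied 60% of the calories, and no gene was altered in either. The series set out to find genes tied to disturbed lipid handling of the liver in obesity. RNA of 6 mice per diet was combined 2 by 2, read here as 3 pools, and each pool went onto its own Affymetrix Mouse Genome 430 2.0 array, which makes the array the replicate (n = 3 per diet). Values are log2 expression levels of a probe set, and a difference is the high-fat mean minus the normal diet mean ± its standard error (SE) in the limma model. The p-values therefore weigh a difference against the spread between pools, not between single mice, and are adjusted by the Benjamini-Hochberg method over 27399 tested probe sets. A probe set is called where its adjusted p is below 0.05. The number of arrays limits the precision of every value below.

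Collagens are proteins of the extracellular matrix built from 3 chains wound into a triple helix. The fibrillar collagens I, III and V form the fibrils that give tissue its tensile strength, fibril-associated collagens sit on their surface, collagen VI forms beaded filaments, and collagen IV builds the sheet-like network of basement membranes. In the liver most of the fibrillar chains are made by stellate cells and portal fibroblasts rather than by hepatocytes, and fibrillar collagen accumulates in fibrosis.

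The start regions of Col3a1 and Col1a2, which carried the largest differences among the collagens that were called, are shown first. The RefSeq promoters used here held none for Col5a2 and Col14a1, the other called genes. Each sequence holds the 250 bases before the RefSeq transcript start in GRCm38.p6, on the plus strand, at chr1:45311288-45311537 for Col3a1 and chr6:4505368-4505617 for Col1a2. Capitals mark matches on either strand to 4 short motifs, namely CCAAT (the CCAAT box), GGGCGG (the GC box), CAGACA (an element bound by SMAD proteins) and TATAAA (the TATA box).
Col3a1: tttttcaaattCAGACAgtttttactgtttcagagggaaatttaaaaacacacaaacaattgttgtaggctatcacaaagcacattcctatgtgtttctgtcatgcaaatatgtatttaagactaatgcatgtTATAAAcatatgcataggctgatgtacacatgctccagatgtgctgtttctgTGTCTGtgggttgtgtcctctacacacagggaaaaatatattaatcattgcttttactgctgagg
Col1a2: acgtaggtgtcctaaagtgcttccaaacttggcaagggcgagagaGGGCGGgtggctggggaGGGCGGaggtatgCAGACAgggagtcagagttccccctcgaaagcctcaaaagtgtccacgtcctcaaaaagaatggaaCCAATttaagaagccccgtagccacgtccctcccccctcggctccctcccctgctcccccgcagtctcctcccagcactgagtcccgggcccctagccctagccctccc
The Col3a1 stretch held CAGACA at 239 bases before the start and again, on the minus strand and so read as TGTCTG, at 65, with TATAAA at 117. The Col1a2 stretch held GGGCGG at 205 and 188, CAGACA at 175 and CCAAT at 109. Over 32851 promoters of this length, 33.8% held CCAAT, 32.7% GGGCGG, 17.1% CAGACA and 12.4% TATAAA. Of 36 promoters of 33 collagen genes in the same RefSeq table, 13, 21, 8 and 5 held them. These matches describe letters in a window and say nothing on whether a factor binds there. Col3a1 lies next to Col5a2 on chromosome 1 in that assembly, with 0 annotated genes between them.

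Arrays of the high-fat diet correlated with each other at a Pearson's r of 0.992 to 0.993 over the tested probe sets, those of the normal diet at 0.973 to 0.988, and arrays of different diets at 0.955 to 0.981. The median SD of a probe set was 0.166 under the normal and 0.120 under the high-fat diet. For the Gapdh controls, which report on RNA integrity, the 3' minus 5' level was 0.36 in normal diet 1, and elsewhere it ranged from -0.19 to 0.01. Hepatocyte markers marked the tissue as labelled: Alb lay at 14.4 and 14.5 under the normal and high-fat diet and its difference was 0.07 (limma adjusted p = 0.644).

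Of the 82 collagen probe sets, 45 of 30 genes lay above the level filter, set at the 40th percentile of each array, in 3 or more of the 6 arrays. That is 54.9% of the collagen probe sets, against 60.8% of all. A further 3 lay above it in 1 or 2 arrays and 34 in 0. The 12 genes with no tested probe set were Col4a3, Col4a4, Col4a5, Col6a5, Col8a2, Col10a1, Col11a1, Col17a1, Col19a1, Col23a1, Col24a1 and Col26a1. The 37 untested probe sets lay between 2.02 and 4.43 in any array, and their differences ran from -0.37 to 0.80 with a median of -0.11. Near such levels the array method compresses differences.

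The high-fat livers had more RNA of 3 fibrillar chains, Col3a1, Col1a2 and Col5a2, and of the fibril-associated Col14a1, by 1.75-fold to 4.92-fold. In all, 5 of the 45 tested collagen probe sets, of these 4 genes, were called higher. Among all tested probe sets 4.02% were called higher and 1.31% lower, 1102 and 358 probe sets. For collagens the share called higher was 11.1%, and 0 were called lower, with 13 higher and 3 lower at an unadjusted limma p below 0.05, a threshold that 24.7% of all tested probe sets passed in either direction. After a further quantile normalization 787 probe sets were called higher and 418 lower, with 4 higher and 0 lower among the collagens. In the bulk tissue more cells of a type and more RNA per cell cannot be told apart.

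Over the whole family, the called probe sets included, differences spread to both sides of 0. The median over the 45 tested collagen probe sets was -0.03, against -0.02 over all tested, and 22 (48.9%) lay above 0, against 47.2% of all. The 3 high-fat arrays lay above the 3 normal diet arrays in 11 collagen probe sets (24.4%) and below them in 5 (11.1%), where 17.5% and 15.0% of all tested probe sets did so. Col1a2 1423110_at passed the filter only through the high-fat arrays and Col11a2 1423578_at only through the normal diet arrays. Without them the counts were 10 and 4 of 43.

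**Figure D1:**
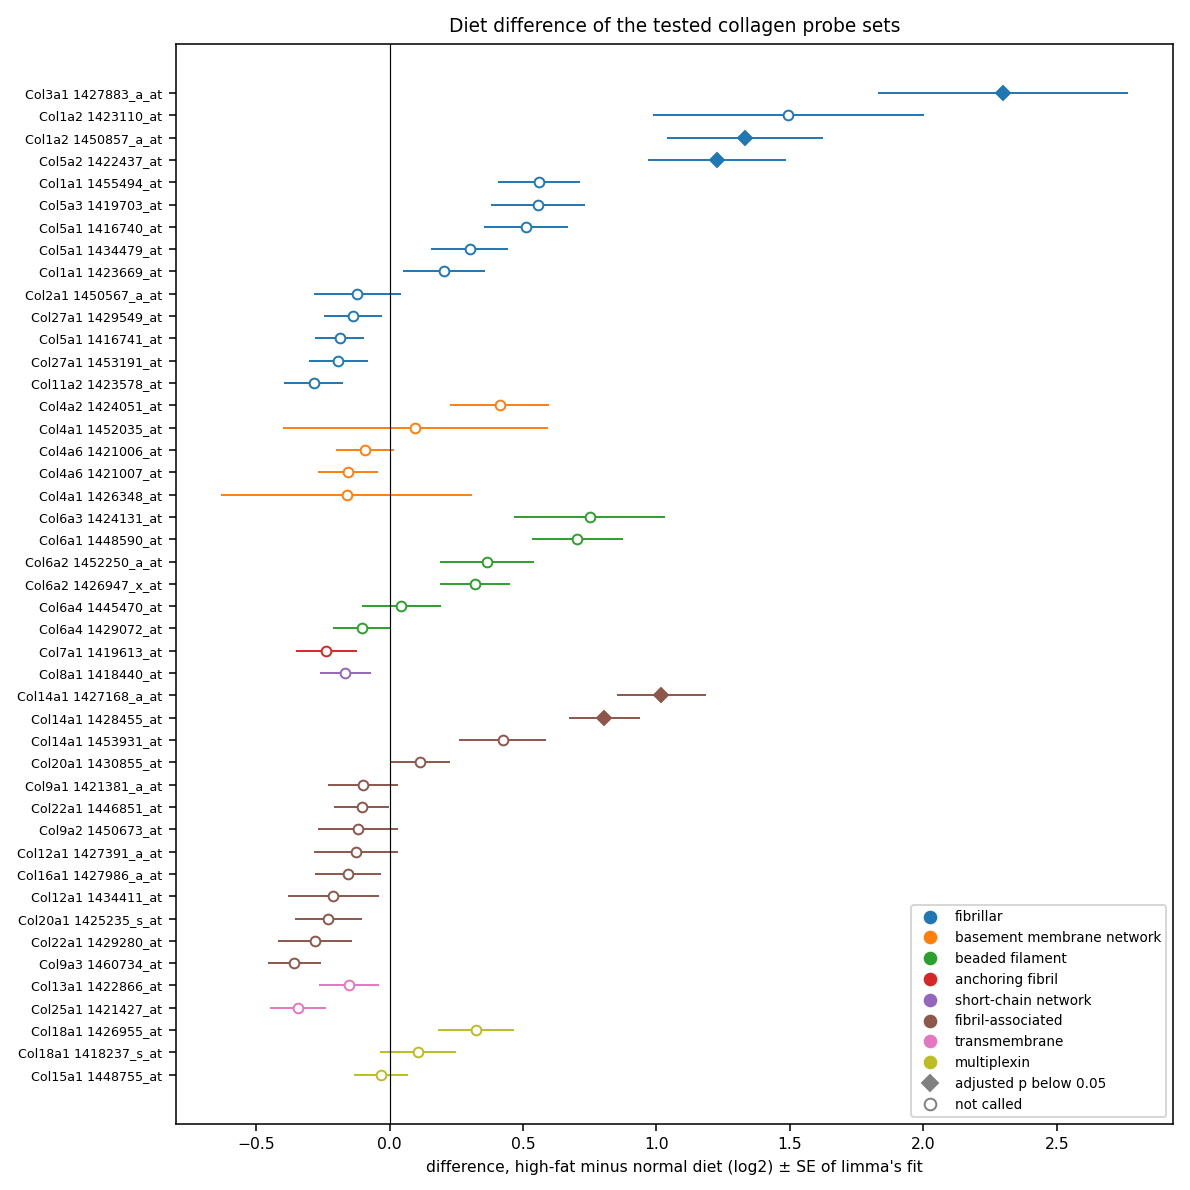
Difference between the diets (high-fat minus normal, log2) for the 45 tested collagen probe sets, ordered by structural class, with the SE of limma's fit as bars. Filled diamonds mark the 5 called probe sets, which belong to Col3a1, Col1a2, Col5a2 and Col14a1, and the differences run from -0.36 to 2.30.

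Col3a1 encodes the chain of collagen III, which forms fine reticular fibrils together with collagen I. Its probe set 1427883_a_at lay at 5.87, 6.39 and 6.56 in normal diet 1, 2 and 3, and at 7.48, 9.54 and 8.70 in high-fat 1, 2 and 3. All 3 high-fat arrays were above the normal diet arrays, but they spread over a wide range, with high-fat 2 highest and high-fat 1 lowest. The means were 6.27 ± 0.36 and 8.57 ± 1.04 (SD, n = 3), and the difference of 2.30 ± 0.47, or 4.92-fold, was the largest of the family (limma adjusted p = 0.0373). Its other probe set, 1427884_at, lay at 2.66 to 2.85 under the normal diet and at 3.20, 4.43 and 3.12 under the high-fat diet. It passed the filter in 1 array and was not tested, and high-fat 2 was again its highest array.

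Col1a2 encodes the alpha-2 chain of collagen I, the main fibrillar collagen. For 1450857_a_at the normal diet arrays read 6.39, 6.70 and 6.93 and the high-fat arrays 7.44, 8.64 and 7.94. The order of the high-fat arrays was that of Col3a1, and the diets did not overlap. Its difference was 1.33 ± 0.29, or 2.52-fold (limma adjusted p = 0.0448). A second probe set, 1423110_at, read 3.11, 3.16 and 3.56 against 3.77, 6.05 and 4.50, a difference of 1.49 ± 0.51 that was not called (limma adjusted p = 0.129). Its high-fat arrays had an SD of 1.17, the largest of any collagen probe set under that diet. The third, 1446326_at, stayed between 2.32 and 2.39 on all arrays and was not tested.

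Col5a2 encodes a chain of collagen V, which is built into collagen I fibrils and controls how thick they become. Probe set 1422437_at was nearly constant under the normal diet, at 3.95, 4.05 and 3.96, and read 4.62, 5.77 and 5.24 under the high-fat diet. The difference was 1.23 ± 0.26, or 2.34-fold (limma adjusted p = 0.0405). The other Col5a2 probe set, 1450625_at, lay below the filter on all arrays and differed by 0.13. Of the other collagen V chains, Col5a1 had 3 tested probe sets that disagreed. For 1416740_at the arrays read 4.13, 4.32 and 4.23 against 4.46, 5.05 and 4.71 (0.51 ± 0.16, limma adjusted p = 0.106), while 1416741_at read 4.64, 4.63 and 4.60 against 4.50, 4.38 and 4.43 (-0.19 ± 0.09, limma adjusted p = 0.258). The diets did not overlap in either, and the directions were opposite. The third, 1434479_at, differed by 0.30 ± 0.14 (limma adjusted p = 0.241), and Col5a3 1419703_at by 0.56 ± 0.18 (limma adjusted p = 0.111), both with overlapping diets.

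Col1a1, which encodes the partner of Col1a2 in collagen I, was not called. Its probe set 1455494_at read 3.93, 3.81 and 3.98 under the normal and 4.14, 4.69 and 4.57 under the high-fat diet. The diets did not overlap, and the difference of 0.56 ± 0.15, or 1.48-fold, missed the threshold (limma adjusted p = 0.0811). For 1423669_at the arrays read 4.30, 4.10 and 4.47 against 4.27, 4.74 and 4.46 and overlapped (0.21 ± 0.15, limma adjusted p = 0.439). Whether the chains of collagen I differ from each other in their response was not tested.

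The fibrillar class as a whole held 21 probe sets of 11 genes, of which 14 were tested. Their median difference was 0.41, with 9 above 0 and a range of -0.29 to 2.30. The diets did not overlap in 6 with the high-fat arrays higher and in 2 with them lower, where 17.5% and 15.0% of all tested probe sets did so. The 6 include Col1a2 1423110_at and the 2 include Col11a2 1423578_at, each of which passed the level filter only through the diet where it was higher. The tested chains of cartilage type, Col2a1 and Col11a2, and Col27a1 all had differences below 0, from -0.12 to -0.29, and none was called. Col11a2 read 3.58, 3.61 and 3.66 against 3.41, 3.16 and 3.42, without overlap (limma adjusted p = 0.168).

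**Figure D2:**
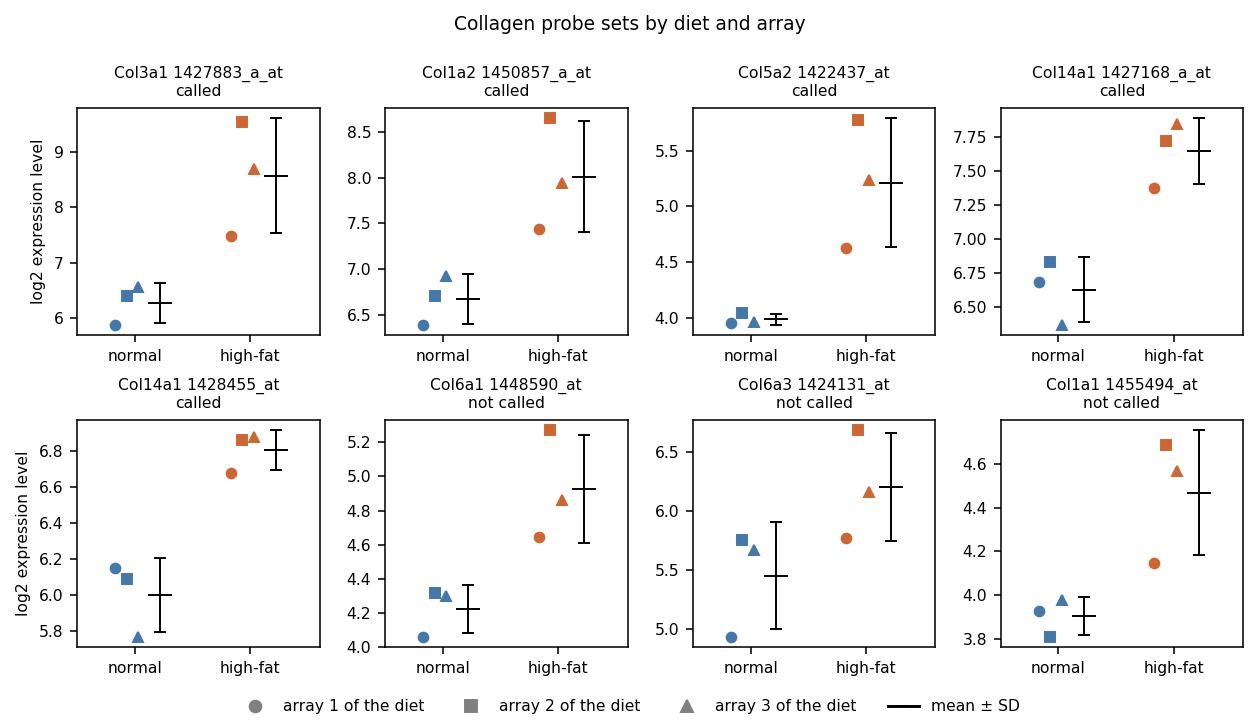
Log2 expression level of 8 collagen probe sets on the 3 normal diet arrays (blue) and the 3 high-fat arrays (orange), with the mean and SD of each diet as black bars. In the panels of Col3a1, Col1a2, Col5a2, Col6a1, Col6a3 and Col1a1 high-fat 2 is the highest and high-fat 1 the lowest high-fat array, while in both Col14a1 panels high-fat 3 is the highest.

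Col14a1 encodes collagen XIV, a fibril-associated collagen that binds to the surface of collagen I fibrils. Probe set 1427168_a_at read 6.68, 6.84 and 6.37 under the normal diet and 7.38, 7.72 and 7.84 under the high-fat diet. In 1428455_at the values were 6.15, 6.09 and 5.77 against 6.68, 6.86 and 6.88. The diets did not overlap in either, and high-fat 3 was the highest high-fat array in both. Their differences were 1.02 ± 0.17, or 2.02-fold, and 0.80 ± 0.13, or 1.75-fold, each with a limma adjusted p of 0.0180. The remaining probe set, 1453931_at, read 3.30, 3.70 and 3.46 against 3.92, 4.15 and 3.65, and was not called (0.42 ± 0.16, limma adjusted p = 0.165).

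No other fibril-associated collagen was called. The class held 24 probe sets of 9 genes, 13 of them tested, with a median difference of -0.12, and Col14a1 supplied both calls. Apart from Col14a1 and 1 probe set of Col20a1 (0.12), all tested members of the class had differences below 0. The lowest was Col9a3 1460734_at, a chain of collagen IX, with 5.50, 5.46 and 5.56 against 5.10, 5.08 and 5.26. Its diets did not overlap, and the difference of -0.36 ± 0.10 was the most negative of the tested collagens, without a call (limma adjusted p = 0.0863).

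Collagen VI is a microfilament found around cells in most connective tissue, assembled from the products of Col6a1, Col6a2 and another chain such as Col6a3. None of its probe sets was called by limma, and 3 had an unadjusted p below 0.05, all higher. Col6a1 1448590_at read 4.06, 4.32 and 4.30 against 4.65, 5.27 and 4.86 (0.70 ± 0.17, 1.63-fold, limma adjusted p = 0.0597). Col6a3 1424131_at read 4.94, 5.75 and 5.67 against 5.77, 6.68 and 6.16 (0.75 ± 0.28, 1.68-fold, limma adjusted p = 0.160). The diets did not overlap in either, although in Col6a3 the lowest high-fat array was barely above the highest normal diet array. Col6a2 gave 0.32 ± 0.13 and 0.36 ± 0.18 in 1426947_x_at and 1452250_a_at (limma adjusted p = 0.189 and 0.248), the first without and the second with overlap. Col6a4, the other gene of the class with tested probe sets, differed by -0.10 and 0.04. The 3 largest differences of the family that were not called were those of Col1a2 1423110_at, Col6a3 and Col6a1.

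Collagen IV, the network of basement membranes, showed no call and 0 probe sets with an unadjusted limma p below 0.05. Col4a1, the gene of its alpha-1 chain, varied more among the normal diet arrays than between diets. Its probe set 1426348_at read 5.73, 6.65 and 7.92 in normal diet 1, 2 and 3 but 6.67, 6.63 and 6.51 under the high-fat diet. The second probe set, 1452035_at, repeated this with 5.74, 7.06 and 8.06 against 6.99, 7.06 and 7.11. The SDs were 1.10 and 1.16 under the normal and 0.09 and 0.06 under the high-fat diet. The differences were -0.16 ± 0.47 and 0.10 ± 0.50 (limma adjusted p = 0.856 and 0.921), with errors several times those of most collagens. Normal diet 1, the lowest array of both, was also the one with the Gapdh difference of 0.36, and the part of RNA integrity in this spread was not tested.

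Col4a2, whose product pairs with that of Col4a1 and whose gene overlaps it head to head on the chromosome, did not share this spread in full. It read 6.34, 6.42 and 6.86 against 6.79, 7.27 and 6.80, with SDs of 0.28 and 0.27. The order of the normal diet arrays was that of Col4a1. Its difference of 0.41 ± 0.19 was not called (limma adjusted p = 0.220). Both Col4a6 probe sets differed by less, at -0.09 and -0.16, and those of Col4a3, Col4a4 and Col4a5 were not tested.

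**Figure D3:**
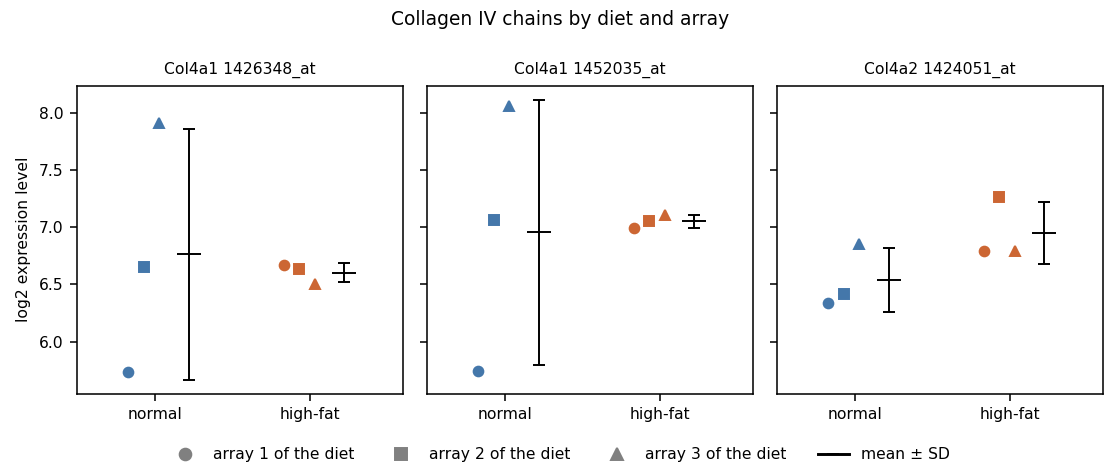
Log2 expression level of Col4a1 (both probe sets) and Col4a2 on the 3 arrays of each diet, with mean and SD as black bars. The normal diet arrays of Col4a1 spread from 5.73 to 7.92 and from 5.74 to 8.06, while its high-fat arrays lie within 6.51 to 6.67 and 6.99 to 7.11.

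The multiplexins Col15a1 and Col18a1 encode basement membrane collagens that carry sugar chains, and collagen XVIII, which is made by hepatocytes, is the parent protein of endostatin. Col18a1 read 10.48, 10.22 and 9.98 against 10.24, 10.34 and 10.42 in 1418237_s_at (0.11 ± 0.14, limma adjusted p = 0.666). In 1426955_at it read 9.51, 9.10 and 9.08 against 9.55, 9.44 and 9.66 (0.32 ± 0.14, limma adjusted p = 0.212), with overlap of the diets in both. Col15a1 1448755_at stayed between 3.75 and 3.95 on all 6 arrays (-0.03 ± 0.10, limma adjusted p = 0.863).

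The tested members of the remaining classes lay below 0 and were not called. Col25a1, a transmembrane collagen gene, read 6.57, 6.56 and 6.76 against 6.36, 6.29 and 6.21 without overlap (-0.34 ± 0.11, limma adjusted p = 0.106). Col13a1, of the same class, differed by -0.15. Col7a1, the gene of the anchoring fibrils of skin, differed by -0.24, and the short-chain collagen gene Col8a1 by -0.17, the latter without overlap (limma adjusted p = 0.243 and 0.317).

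Among collagens with higher levels under the high-fat diet the arrays kept a common order. Of the 22 tested collagen probe sets with a difference above 0, high-fat 2 was the highest of the 3 high-fat arrays in 16 and high-fat 1 the lowest in 18. Over all tested probe sets with a difference above 0, this held for 33.0% and 37.4%. Of the 14 fibrillar and beaded filament probe sets with a difference above 0, 13 had high-fat 2 highest and 12 had high-fat 1 lowest.

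The calls of the 5 probe sets depended on single arrays, while each kept its direction whichever array was left out. With each array left out in turn, the difference of Col3a1 ran from 1.81 to 2.84, that of Col1a2 1450857_a_at from 1.01 to 1.62 and that of Col5a2 from 0.94 to 1.52. The lowest value came without high-fat 2 and the highest without high-fat 1 in each. Those of Col14a1 ran from 0.89 to 1.15 and from 0.69 to 0.88. Without high-fat 2 or high-fat 3 limma called 0 collagen probe sets, with 9 and 12 higher at an unadjusted p below 0.05, and 170 and 132 of all probe sets were then called higher. Without normal diet 1 or 2 the calls were 2, both of Col14a1. Without normal diet 3 they were 4, with Col5a2 lost, and without high-fat 1 also 4, with Col14a1 1428455_at lost.

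**Figure D4:**
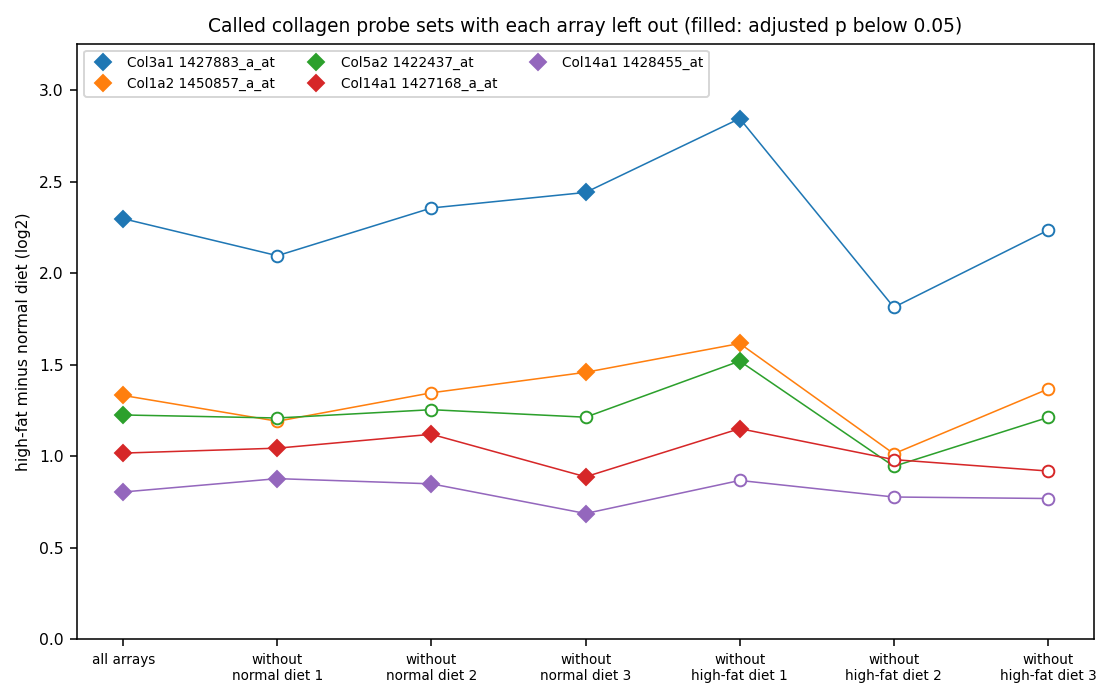
Difference between the diets (high-fat minus normal, log2) of the 5 called collagen probe sets with all arrays and with each array left out in turn. Filled diamonds mark a limma adjusted p below 0.05 and open circles a larger one. All values stay above 0, and no point is filled without high-fat 2 or high-fat 3.

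Genes that act on collagen were taken from 4 lists. Of 16 tested genes that modify and fold the chains in the endoplasmic reticulum, 1 was called higher and 0 lower, and the median difference of the list's tested probe sets was 0.00. It was Fkbp14, the gene of a prolyl isomerase that helps collagen fold. Its probe set 1433481_at had means of 4.12 ± 0.15 and 4.72 ± 0.15 (SD, n = 3), a difference of 0.60 ± 0.12 (limma adjusted p = 0.0386). The values were at most 4.28 under the normal and at least 4.59 under the high-fat diet. The other Fkbp14 probe set, 1458225_at, differed by -0.07 (limma adjusted p = 0.751). The list had 5 of 26 probe sets higher and 2 lower at an unadjusted p below 0.05, a share near the 24.7% of all tested. Serpinh1, the gene of the collagen chaperone HSP47, differed by 0.11 and -0.19, and the prolyl hydroxylase gene P4ha1 by -0.58 (limma adjusted p = 0.0733), without a call.

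Of 10 tested genes of secretion and propeptide cleavage, 2 were called higher and 0 lower (median difference 0.20). The list had 4 of 16 probe sets higher and 0 lower at an unadjusted p below 0.05, a share near the 24.7% of all tested. Mia2, whose product works in export from the endoplasmic reticulum, read 4.71, 4.98 and 4.78 against 5.46, 5.74 and 5.45 (0.73 ± 0.13, limma adjusted p = 0.0228). Pcolce, which encodes an enhancer of the protease that removes the carboxyl end of fibrillar procollagens, read 5.39, 5.29 and 5.24 against 5.78, 6.16 and 6.23 in 1437165_a_at (0.75 ± 0.14, limma adjusted p = 0.0257). Its second probe set, 1448433_a_at, differed by 0.51 ± 0.14 (limma adjusted p = 0.0837).

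Of 14 tested genes of crosslinking and fibril assembly, 1 was called higher and 1 lower (median difference 0.24). Decorin (Dcn 1449368_at), a proteoglycan that binds collagen fibrils, read 9.93, 9.96 and 9.97 against 10.54, 10.51 and 10.71 (0.63 ± 0.10, limma adjusted p = 0.0162). Fn1, the gene of fibronectin, fell in 1437218_at, with 4.67, 4.39 and 5.21 against 3.80, 3.61 and 3.89 (-0.98 ± 0.20, limma adjusted p = 0.0393), and its probe set 1426642_at differed by -0.42 ± 0.10 (limma adjusted p = 0.0562). The list had 10 of 25 probe sets higher and 2 lower at an unadjusted p below 0.05, where 24.7% of all tested probe sets passed. Among those without a call, Lum, the gene of lumican, a further fibril-binding proteoglycan, read 5.98, 6.49 and 6.24 against 6.94, 8.26 and 6.99 (limma adjusted p = 0.0967), with high-fat 2 highest as for Col3a1. The crosslinking enzyme gene Lox differed by -0.18 in its 1 tested probe set (limma adjusted p = 0.330). Of 10 tested collagen receptor genes limma called 0, with a median difference of 0.08. The receptor list had 3 of 16 probe sets higher and 1 lower at an unadjusted p below 0.05, a share near the 24.7% of all tested.

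These 5 genes also depended on single arrays. With each array left out in turn, Fkbp14 kept its call in 1 of 6 cases, Fn1 in 2, and Mia2, Pcolce and Dcn in 3 each. The range was 0.52 to 0.69 for Fkbp14, 0.63 to 0.81 for Mia2, 0.67 to 0.89 for Pcolce, 0.57 to 0.67 for Dcn and -1.17 to -0.76 for Fn1. All 5 lost it without high-fat 2 and without high-fat 3. Mia2 and Dcn lost it without high-fat 1, Pcolce without normal diet 2, Fn1 without normal diet 1 and high-fat 1, and Fkbp14 also without normal diet 1, normal diet 3 and high-fat 1.

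Of 16 tested stellate cell markers 3 were called higher and 0 lower, namely Lrat, the retinol-esterifying enzyme gene that defines these cells (1.43 ± 0.32, limma adjusted p = 0.0487), Vim and Colec11, the last pair named after their values were seen. By probe set the calls were 4 of 30, where 4.02% of all tested probe sets were called higher and 1.31% lower. At an unadjusted limma p below 0.05 the list had 10 higher and 0 lower, where 24.7% of all tested probe sets passed. The call of Lrat rests on 1444487_at, while 1421345_at differed by 0.44 (limma adjusted p = 0.120). Lrat was called in 8 of 16 alternatives. It lost its call with no level filter, with probe sets without a suffix, after quantile normalization and cyclic loess, and without normal diet 1 or high-fat 1, 2 or 3, with a limma adjusted p of 0.0165 to 0.173 over the alternatives. The summed level of the list, each gene at its brightest probe set on the linear scale, was 1734 to 1833 under the normal and 2229 to 2503 under the high-fat diet, with high-fat 1 lowest of the high-fat arrays. Bright genes weigh most in this sum, among them Ecm1 1448613_at (means of 8.60 and 8.93) and Colec11 1458345_s_at (8.12 and 9.03). The defining markers Reln, Des, Pdgfrb and Acta2, the last an actin of activated stellate cells, were not called. Reln, Des 1426731_at and Acta2 differed by 0.35, -0.06 and 0.25 (limma adjusted p = 0.291, 0.739 and 0.272). Pdgfrb differed by 0.67 in its brighter probe set 1436970_a_at and by -0.03 in 1417148_at (limma adjusted p = 0.147 and 0.904). Of 7 tested portal fibroblast markers limma called 0, with 2 of 8 probe sets higher and 0 lower at an unadjusted p below 0.05. Their median difference was -0.03, and 2 of the 8 lay above 0. Their summed level was 232 to 253 and 249 to 286, and Cd34 lay below the filter on all arrays. The defining Thy1 differed by -0.25, Eln by -0.02 and -0.04, and the tested Fbln2 probe set by 0.36 (limma adjusted p = 0.257, 0.923, 0.876 and 0.176). The part of either cell type in the collagen differences was not tested.

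Of 12 tested macrophage markers 6 were called higher and 0 lower, among them the defining Cd68 (1.28 ± 0.13, limma adjusted p = 0.00458), Gpnmb and Vsig4. By probe set the calls were 8 of 16, where 4.02% of all tested probe sets were called higher and 1.31% lower. The defining Clec4f was not called, with a difference of 0.07 and overlapping diets (limma adjusted p = 0.835). The summed level of the list was 2259 to 2915 against 3947 to 4150. At an unadjusted p below 0.05 the list had 10 probe sets higher and 2 lower, and the lower ones, 1 of 2 probe sets each of Trem2 (-0.43) and Marco (-0.60), named after their values were seen, had diets that did not overlap. Of 12 tested sinusoidal endothelium markers 2 were called higher and 0 lower, Lyve1, a defining marker, and Fcgr2b, named after its values were seen. By probe set the calls were 3 of 18, with 9 higher and 0 lower at an unadjusted limma p below 0.05. Lyve1 differed by 1.36 ± 0.23 in 1429379_at (limma adjusted p = 0.0210) and, without a call, by 0.68 in 1453128_at (limma adjusted p = 0.0848). The other defining markers were not called. Stab2 and Pecam1 differed by 0.22 and 0.31, and both Clec4g probe sets by -0.06 (limma adjusted p = 0.335, 0.318, 0.847 and 0.814). The list's summed level was 1704 to 1790 against 1977 to 2209. Cd68 kept its call whichever array was left out. Gpnmb kept it in 1 of 6 such cases and lost it after quantile normalization and cyclic loess, and Vsig4 lost it after quantile normalization and without high-fat 1, 2 or 3 (limma adjusted p = 0.0244 to 0.150 and 0.00796 to 0.0812 over the alternatives). Likewise, Lyve1 lost it without high-fat 1, 2 or 3 (limma adjusted p = 0.00553 to 0.0899 over the alternatives). Of 5 tested hepatocyte markers 1, Fgb (-0.78), also named afterwards, was called lower and 0 higher. The defining Alb, Ttr and Apoa1 differed by 0.07, 0.06 to 0.14 and -0.06 to 0.01, without a call. The list's median difference was 0.01, with 0 probe sets higher and 2 lower at an unadjusted p below 0.05. Its summed level, Fgb included, was 77123 to 78941 against 71379 to 73540. Of 5 tested cholangiocyte markers 1 was called higher, Pkhd1, named afterwards too, at summed levels of the list of 114 to 129 and 109 to 119. Pkhd1 passed the level filter only through the high-fat arrays, so its call is not independent of the filter. The defining Krt19 and Krt7 differed by 0.02 and 0.01. Epcam, also defining, differed by -0.24 and, without overlap of the diets, by -0.41 (limma adjusted p = 0.701 and 0.0632). The list's median difference was -0.20.

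Tissue other than liver was looked for by the same kind of list. Of 3 tested exocrine pancreas markers Cela1, the brightest of them, was called lower (-0.81, limma adjusted p = 0.0414). Cpa1 and Cel differed by -0.22 and 0.06 without a call (limma adjusted p = 0.370 and 0.733). Of the 2 smooth muscle, 2 skeletal muscle, 1 adipocyte and 1 mesothelium markers that were tested limma called 0. At an unadjusted limma p below 0.05, 1 smooth muscle probe set was higher and 1 each of skeletal muscle and adipocyte lower. The smooth muscle probe set, Myh11 1448962_at, passed the level filter only through the high-fat arrays. Summed levels were 351 to 522 and 238 to 266 for pancreas, 38 to 42 and 40 to 45 for smooth muscle, 79 to 87 and 64 to 75 for skeletal muscle, 38 to 48 and 34 to 36 for adipocytes, and 46 to 50 and 48 to 54 for mesothelium. Adipoq, Lep and Msln, markers of adipocytes and mesothelium, lay below the filter on all arrays.

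**Figure D5:**
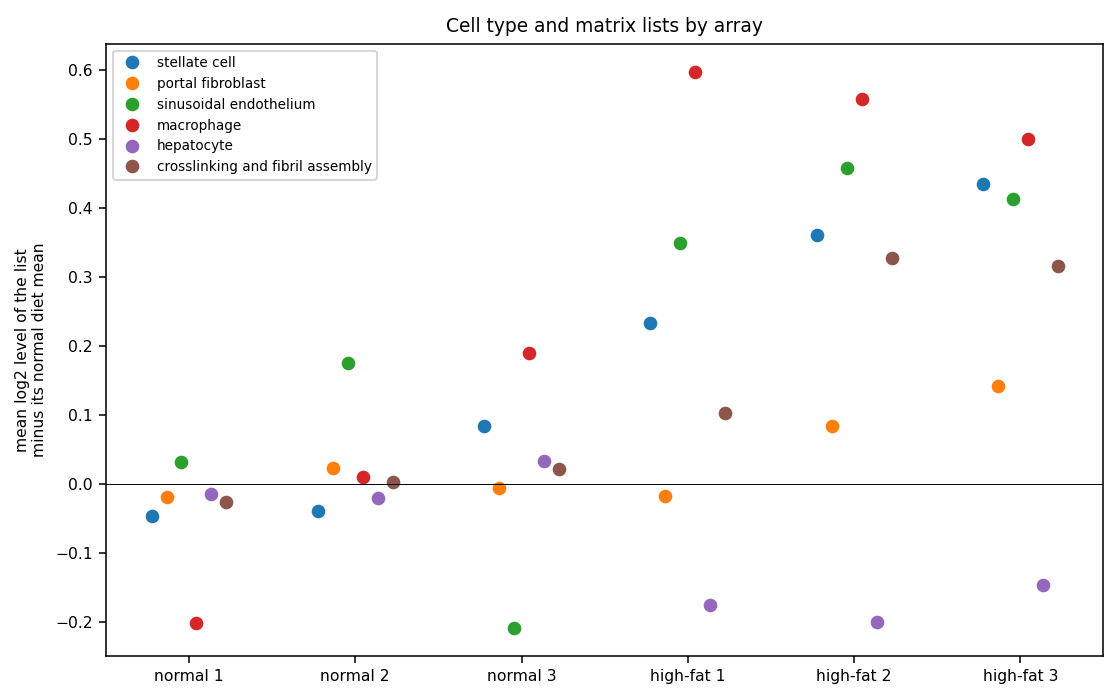
Mean log2 level of 5 cell type marker lists and of the crosslinking and fibril assembly list on each array, minus the list's mean over the normal diet arrays, each gene at its brightest probe set. The stellate cell, macrophage, sinusoidal endothelium and crosslinking and fibril assembly lists lie higher on all 3 high-fat arrays than on any normal diet array. The hepatocyte list lies lower, and the portal fibroblast list overlaps. The hepatocyte list holds 5 genes, among them Fgb with a difference of -0.78 and Alb with 0.07, and its median difference was 0.01.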

How the data were processed

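Liver RNA of 3 pools per diet was measured on Affymetrix Mouse Genome 430 2.0 arrays after TRIzol extraction and biotin labelling, per the labels' protocols. The deposited values are log2 expression levels, which the authors made with RMA (background correction, quantile normalization and probe summary) with the software Affymetrix Expression Console 1.0, as the submitters' processing notes record it, so per the labels. RMA compresses differences near background. The table held 45101 probe sets, of which 64 controls were left out. Of the others 34945 had 1 gene symbol, 932 several and 9160 are unnamed here. All 82 collagen probe sets kept their symbol in a gene table of GRCm38.p6, used for names and neighbours.

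The high-fat diet was tested against the normal diet (limma 3.58.1 under R 4.3.3, lmFit and eBayes, two-sided) for each of 27399 probe sets above the level filter, with Benjamini-Hochberg adjustment over all of them and calls below 0.05. The script was tested on simulated data. Summaries used Python 3.11.15, pandas 2.3.3 and matplotlib 3.10.9. Named were all called collagens, all probe sets of 13 landmark collagen genes, the 3 largest differences without a call, called genes of the collagen lists and defining cell type markers. A few further genes are given as background. The members and lists were chosen with earlier results of these data known. Alternatives were other level filters, variance models, array weights, scalings, choices of probe set, a stricter threshold, each array left out, and a block on the replicate number. Protein features, planned for a few members, are not used here.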

Additional observations from a re-analysis of the deposited data

How the results depend on the processing

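The same 5 collagen probe sets of 4 genes were called with no level filter, a filter on the mean or at the median, trend and robust variance, array weights and median centring. Col1a2 1450857_a_at lost its call after quantile normalization (1.21, limma adjusted p = 0.0645) and cyclic loess (1.23, 0.0582). Over all alternatives the limma adjusted p ran from 0.0366 to 0.145 for this probe set, 0.0208 to 0.142 for Col3a1 1427883_a_at, 0.0255 to 0.145 for Col5a2 1422437_at, and 0.0132 to 0.0881 and 0.00962 to 0.0924 for Col14a1. With the mean of a gene's probe sets 1 collagen gene was called, Col14a1, while Col3a1 gave 1.55 (limma adjusted p = 0.0566), Col1a2 0.94 (0.0851) and Col5a2 0.68 (0.0511). Probe sets without a suffix left 2 collagen probe sets of 2 genes. At an adjusted p below 0.01 limma called 0 collagen probe sets or genes and 0 genes of the 4 collagen lists in either direction. Array weights called 2 genes of those lists lower instead of 1. With each array left out, 0 to 4 collagen probe sets, 0 to 4 collagen genes, and 0 to 4 higher and 0 to 2 lower genes of the collagen lists were called. Small differences changed sign: Col4a1 1426348_at to 0.057 with array weights and, over arrays left out, -0.68 to 0.41 (the latter without normal diet 3), Col4a1 1452035_at to -0.029 after quantile normalization, -0.032 as a mean over probe sets and, over arrays left out, -0.51 (without normal diet 1) to 0.65, Col15a1 to 0.019, 0.047 and 0.013 after quantile normalization, cyclic loess and median centring and, over arrays left out, -0.080 to 0.019, with 0.00075 without normal diet 2 and the highest without high-fat 1, and Col18a1 1418237_s_at to -0.023 after cyclic loess and, over arrays left out, -0.015 (without normal diet 3) to 0.23. Fewer samples or probe sets enter where arrays or probe sets are left out, and the cause of the other changes was not tested. The main fit took the arrays of the diets as unpaired. The correlations of same-numbered deviations were -0.01, 0.06 and 0.10, and 3 of 6 arrays correlated best with their own number. With n = 3 per diet these values cannot exclude a pairing by replicate number. With a replicate block 6 collagen probe sets were called, adding Col6a3 (0.75, limma adjusted p = 0.0460), whose adjusted p reached 0.383 over the alternatives, while Fkbp14 and Pcolce 1437165_a_at were not called.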
